A study of Mus musculus with 13 samples.

Results

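The opioid system of mouse retrosplenial cortex was described through its 7 core genes: the peptide precursors Penk, Pdyn and Pnoc and the receptors Oprk1, Oprm1, Oprd1 and Oprl1. They were chosen by name, as the genes that encode the opioid peptides and receptors, with earlier results of these data known. Of these, 6 were among the 15114 genes of the table of dissociated neurons, which has no row for Pnoc, and all 7 were among the 32285 genes of the tables of spatial spots.

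The study profiled wild-type B6 mice, with no treatment in the labels, by single-cell RNA sequencing of neurons microdissected from retrosplenial cortex and by Visium spatial transcriptomics, in which tissue sections are laid on an array of barcoded spots. The dissociated neurons came from 3 animals in 11 samples, and the column headers give each cell's dissection level as anterior (256 cells), medium (217 cells) or posterior (292 cells). Cells had been pooled across acute slices before dissociation. The spatial data came from 2 sections, named S4 (1022 spots) and S8 (951 spots) in the files, cut at 10 µm from flash-frozen brain.

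Opioid peptides are cut from precursor proteins, stored in dense-core vesicles and released near or far from synapses. Penk encodes proenkephalin, the source of enkephalins, which act mostly on the delta and mu receptors. Pdyn encodes prodynorphin, whose dynorphins prefer the kappa receptor, and Pnoc encodes the precursor of nociceptin, the ligand of the nociceptin receptor. The receptors, encoded by Oprm1 (mu), Oprd1 (delta), Oprk1 (kappa) and Oprl1 (nociceptin), are inhibitory G protein-coupled receptors that lower transmitter release and open potassium channels. In cortex enkephalin and dynorphin have been studied both in interneurons and in pyramidal cells.

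The 765 cells held 2306470 to 15974543 counts per sample, and the median cell held 138331. Depth differed between animals, whose median cells held 65843, 132797 and 185995 counts in animals 1, 2 and 3. Slc17a7, which encodes the vesicular glutamate transporter of cortical excitatory neurons, was counted in 756 cells. Gad1, which makes GABA, was counted in 46 cells and Gad2 in 13, and 0 cells had 10 or more counts of either. The dissociated cells are thus nearly all excitatory by these markers. No 2 cell columns were identical. The sections held 8436518 and 6389042 counts and shared 162 spot barcodes, which the array design allows.

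Cells were grouped into 11 clusters with the opioid genes and the 45 pathway genes described further on held out of the clustering, so neither drew the groups. Clusters were named by leading genes or by marker lists: cluster 1 (Calb1, 203 cells), cluster 2 (Tnnc2, 122 cells), cluster 3 (Reln and Mc4r, layer 5 extratelencephalic-like, 78 cells, all posterior), cluster 4 (layer 6 intratelencephalic-like, 75 cells), cluster 5 (layer 6 corticothalamic-like, 71 cells), cluster 6 (layer 5 intratelencephalic-like, 70 cells), cluster 7 (Nrtn and Tns1, layer 5 extratelencephalic-like, 63 cells) and cluster 8 (Calb1 and Cxcl14, 38 cells). Clusters 9 (BC006965, 23 cells), 10 (layer 6b-like, 11 cells) and 11 (Kcnip1, 11 cells) had too few cells per animal to be tested. Levels are CPM, a group's summed counts of a gene scaled to a common total, and they are compared between groups for 1 gene, not between genes, because gene lengths were not used. The names of clusters 5 and 6 are uncertain. The layer 5 intratelencephalic list summed to 469 CPM in cluster 5 and 347 in cluster 6. The layer 6 corticothalamic list summed to 886 CPM in cluster 3 and 542 in cluster 5. When each cell was given its highest-scoring marker class, 63.4% of cluster 5 and 80% of cluster 6 fell in the class of their name. In cluster 8, 73.7% of the cells fell in the Calb1 class, so its name is uncertain too. A gene was called in a group when edgeR's quasi-likelihood test on counts summed per animal, with animal as a block, gave a Benjamini-Hochberg adjusted p under 0.05 over all genes tested and a log2 fold change of at least 1 in size against the mean of the other clusters. Because other genes of the same cells drew the clusters, these p-values speak of the spread between animals given the clusters.

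Among the 6 opioid genes tested, 3 were called in at least 1 of the 8 clusters, Penk, Pdyn and Oprk1, against 16.8% of the 13374 genes tested. Each of the 3 was high in a different set of clusters. Penk was high in the Calb1 clusters and the layer 6 intratelencephalic-like cluster, and Pdyn in the layer 5 extratelencephalic-like clusters. Oprk1 was high in the layer 6 intratelencephalic-like cluster, which held 88.2% of its counts, and was also called in the layer 6 corticothalamic-like cluster. Oprl1, Oprm1 and Oprd1 were not called in any cluster.

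**Figure D1:**
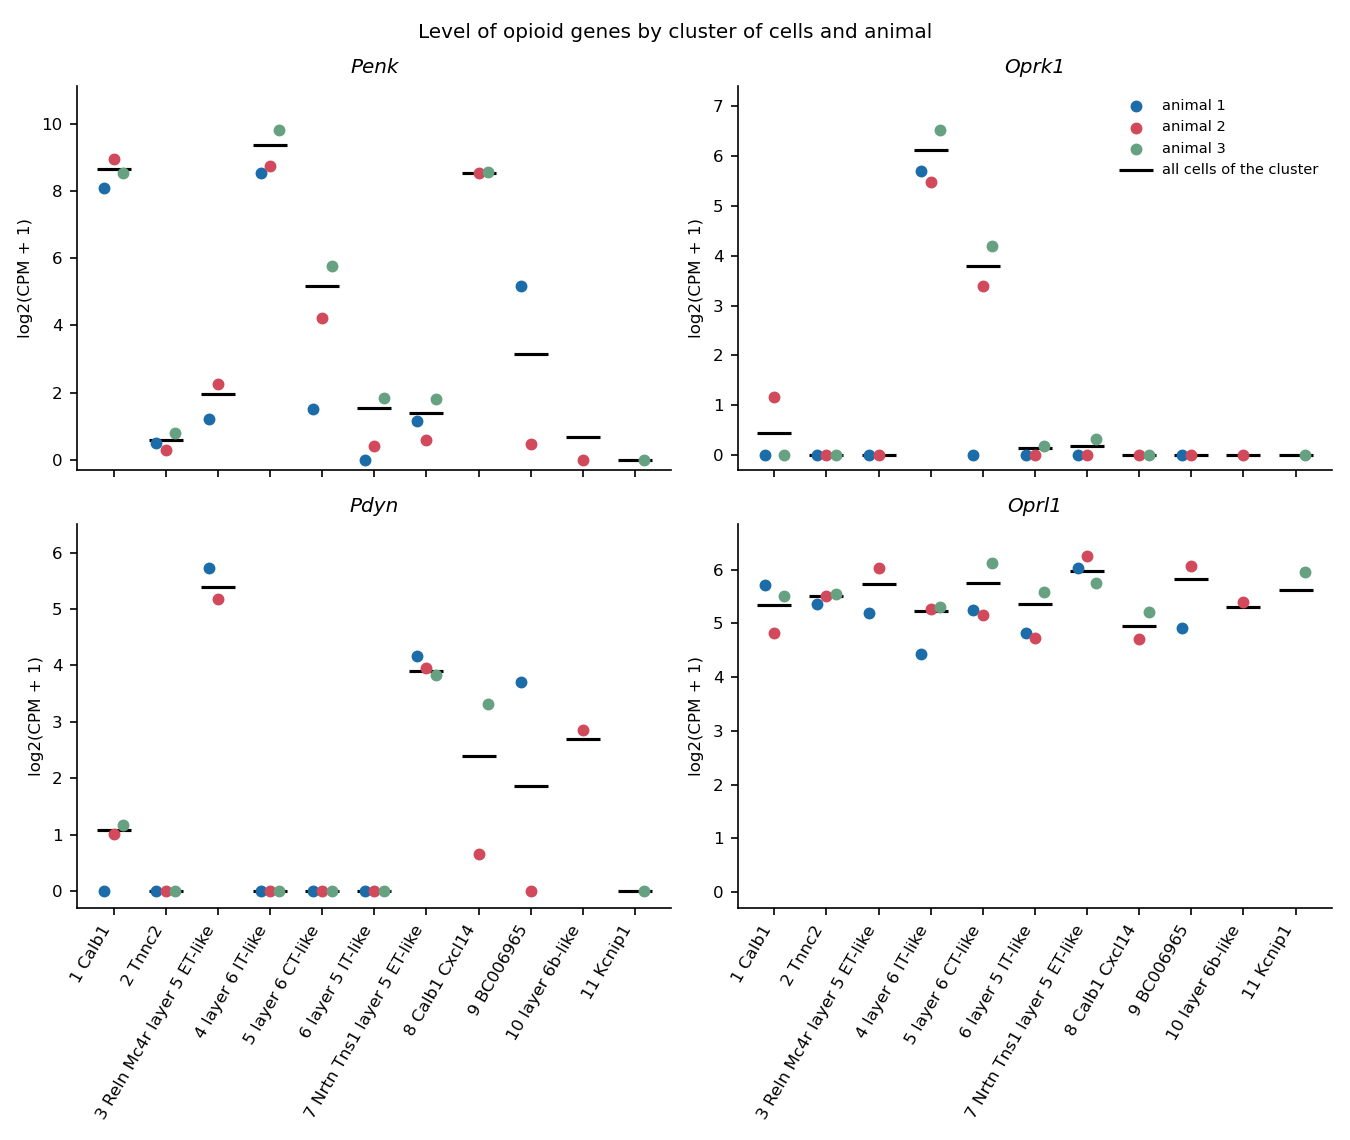
Level of Penk, Oprk1, Pdyn and Oprl1, as log2(CPM + 1), in the 11 clusters of dissociated neurons. Points are the summed cells of 1 animal, shown where the animal has at least 5 cells in the cluster, and bars are all cells of the cluster. Penk stands high in clusters 1, 4 and 8, Oprk1 in clusters 4 and 5 and Pdyn in clusters 3 and 7, while Oprl1 lies between 29.99 and 62.2 CPM in every cluster.

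Penk, the enkephalin precursor, had the most counts of the members in the dissociated neurons. Its 21380 counts lay in 265 of 765 cells (34.6%, exact binomial 95% interval 31.3 to 38.1, covering counting error only), and clusters 1, 4 and 8 held 57.1%, 35.5% and 5.62% of them. In cluster 4 the 3 animals had 369, 428 and 898 CPM (565 ± 290, SD, n = 3), and in cluster 1 they had 270, 497 and 371 CPM (379 ± 114, SD, n = 3). In cluster 8, animals 2 and 3 had 370 and 381 CPM (376 ± 7.29, SD, n = 2), and animal 1 had 82.9 CPM from 2 cells. Animals overlapped among these 3 clusters, and every value with at least 10 cells was above every animal's value in the other tested clusters. Penk rose against the mean of the other clusters by 5.87 on the log2 scale in cluster 4 (SE 0.26, edgeR adjusted p = 6.76e-10), by 5.36 in cluster 1 (SE 0.26, 3.69e-09) and by 4.91 in cluster 8 (SE 0.30, 1.07e-07). The shares of all tested genes called higher in clusters 4, 1 and 8 were 3.52%, 3.14% and 2.08%.

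Little Penk was counted in clusters 2, 7, 6 and 3, at 0.516, 1.64, 1.90 and 2.88 CPM. Their log2 differences from the other clusters were -5.93, -4.22, -4.11 and -2.53 (edgeR adjusted p = 2.25e-06, 0.000303, 0.000747 and 0.0221). The shares of all genes called lower in these 4 clusters were 2.13%, 0.74%, 0.269% and 0.86%. The call in cluster 3 was lost when counts were summed per sample (-2.02, adjusted p = 0.108) and in thinned cells (-1.66, adjusted p = 0.431). That in cluster 6 was lost at a coarser clustering resolution of 0.5 (-2.09, adjusted p = 0.293) and in thinned cells (-3.95, adjusted p = 0.0545), and it reversed in direction when cells were grouped by marker scores (0.99, adjusted p = 0.243). In the layer 6 corticothalamic-like cluster 5 the animals had 1.86, 17.7 and 53.5 CPM in animals 1, 2 and 3, and Penk was not called there (0.66, adjusted p = 0.328).

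In the order of level, clusters 4, 1 and 8 did not differ beyond their spread from their neighbours (4 against 1, adjusted p = 0.774; 1 against 8, 0.719). Cluster 8 was higher than cluster 5 by 3.72 on the log2 scale (adjusted p = 9.02e-05), where 4.64% of genes were called in that pair of clusters, and cluster 5 was higher than cluster 3 by 2.79 (adjusted p = 0.0147), where 3.82% were called. The neighbours below did not differ beyond their spread (3 against 6, adjusted p = 0.596; 6 against 7, 0.998; 7 against 2, 0.522).

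Within the clusters where Penk was high, not every cell carried it. It was counted in 59 of 75 cells of cluster 4 (78.7%), 137 of 203 cells of cluster 1 (67.5%) and 20 of 38 cells of cluster 8 (52.6%). The median levels in cells with a count were 545, 378 and 383 CPM. Of the cells of cluster 1, 111 had 10 or more counts and 66 had none. For scale, 11 of 122 cells of cluster 2 (9.02%, median total 192858 against 144964 in cluster 1) had a count of Penk, with 12 counts among them. After every cell was thinned to 54512 counts, which left out 77 shallower cells, the share over all cells was 30.2% and that in cluster 2 was 0.87%.

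**Figure D2:**
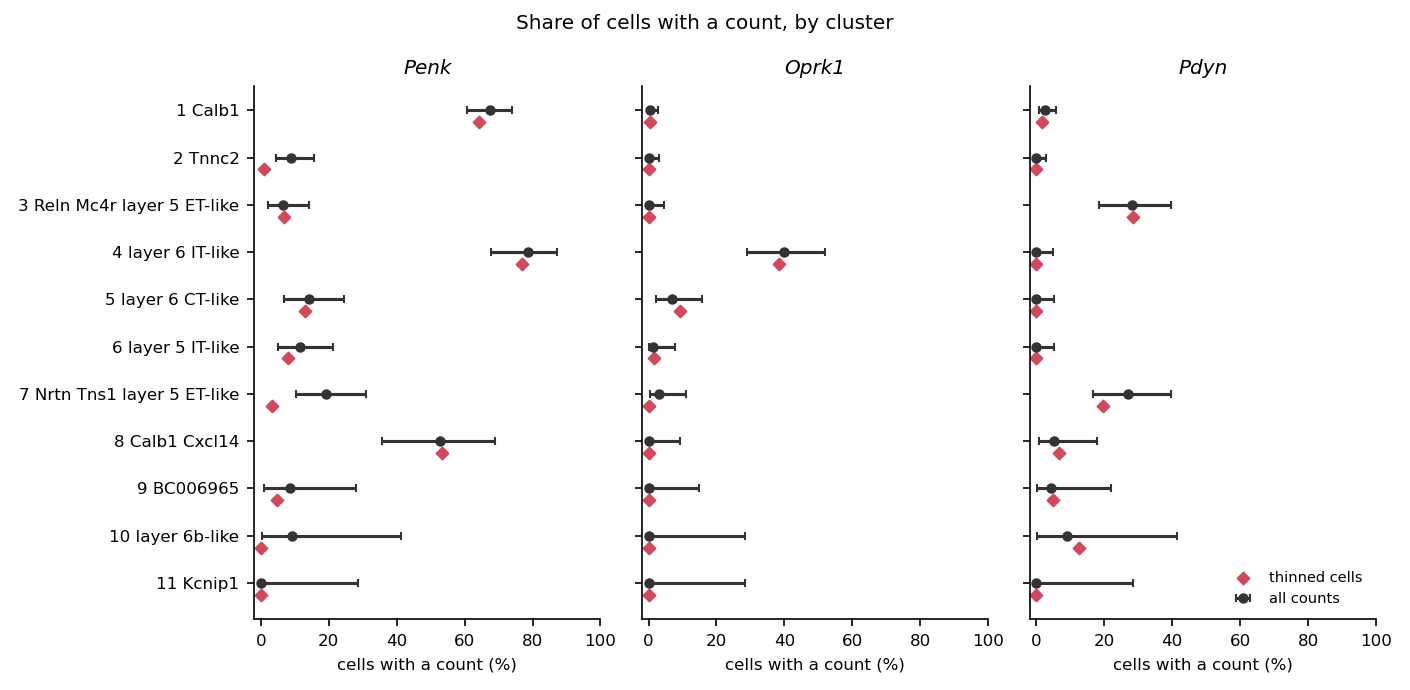
Share of cells with at least 1 count of Penk, Oprk1 or Pdyn in each cluster, in percent. Dark points are all counts with exact binomial 95% intervals, and red diamonds are cells thinned to 54512 counts. The share with Penk is 78.7%, 67.5% and 52.6% in clusters 4, 1 and 8, and that with Oprk1 is 40.0% in cluster 4.

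Penk also varied between samples within a cluster. Over the 11 samples with at least 5 cells of cluster 1 it ran from 125 to 766 CPM with a median of 388, and over 8 samples of cluster 4 from 127 to 1303 with a median of 489. Genes of other cell types also differed between the clusters where Penk was high. The astrocyte list summed to 730 CPM in cluster 8 (3 of 5 genes above 0, with Gfap and Aqp4 at 0) and to 13.5 to 293 CPM in the other clusters. The list of GABA neuron genes summed to 41.3 CPM in cluster 4, of which Npy gave 39.7. Its sums were higher in clusters 2, 7 and 11, at 174, 138 and 537 CPM, where Penk was low and Pvalb gave 168, 136 and 517 CPM, and they were 1.84 to 4.25 CPM in the other clusters. Their part in the Penk levels was not tested.

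Pdyn, the dynorphin precursor, was counted 613 times in 48 of 765 cells (6.27%). Cluster 3 held 340 of these counts in 22 of 78 cells (28.2%), and cluster 7 held 204 in 17 of 63 cells (27.0%). Cluster 3 had 35, 41 and 2 cells of animals 1, 2 and 3. Its animals 1 and 2 had 52.2 and 35.1 CPM (43.7 ± 12.1, SD, n = 2), and animal 3 had 25.2 CPM from 2 cells. In cluster 7 the animals had 16.9 (8 cells), 14.4 and 13.2 CPM. Every value of these clusters was above every animal's value in clusters 1, 2, 4, 5 and 6, where the highest was in cluster 1, whose 34 counts came from 5 cells. Clusters 2, 4, 5, 6 and 11 held no count of Pdyn, which over the 122 cells of cluster 2 allows a share of up to 2.46% by a floor of 3 counts. The floor limits cells with a count, not cells that express the gene.

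Pdyn was called higher in cluster 3 (edgeR adjusted p = 0.00239) and in cluster 7 (adjusted p = 0.00702), while 1.32% of all genes were called higher in each. No fold is given because several clusters held no count. Both calls were lost with DESeq2 (adjusted p = 0.201 and 0.324), and leaving out animal 1 or 2 left cluster 3 with too few cells for a fit. Clusters 3 and 7 did not differ from each other beyond their spread (adjusted p = 1). Cluster 7 did not differ beyond its spread from cluster 8, the next tested cluster in level (edgeR adjusted p = 0.487). Below them, 8 against 1 and 1 against 2 did not differ either (edgeR adjusted p = 0.591 and 0.0932). The GABA neuron list summed to 4.09 CPM in cluster 3 and 138 CPM in cluster 7, with Gad1 at 2 and 5 counts and Gad2 at 0 in both. The astrocyte list summed to 34.6 CPM in cluster 3 and 293 CPM in cluster 7, where Aldoc gave nearly all of it, and the part of these genes in the Pdyn calls was not tested. The other clusters with Pdyn held few counts: 14 counts in 2 cells of cluster 8 (adjusted p = 0.0758), 12 counts in 1 cell of cluster 9 and 9 counts in 1 cell of cluster 10.

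RefSeq gives Pdyn 2 start sites with a promoter entry, and the 250 bases before each are shown. Pdyn was chosen as the only member called higher in the layer 5 extratelencephalic-like clusters, with 2 entries of differing base composition. Sequences are from the GRCm38.p6 build, 5′ to 3′ on the minus strand of chromosome 2, at chr2:129699939-129700188 for the upstream start and chr2:129698659-129698908 for the downstream start.
Pdyn upstream start: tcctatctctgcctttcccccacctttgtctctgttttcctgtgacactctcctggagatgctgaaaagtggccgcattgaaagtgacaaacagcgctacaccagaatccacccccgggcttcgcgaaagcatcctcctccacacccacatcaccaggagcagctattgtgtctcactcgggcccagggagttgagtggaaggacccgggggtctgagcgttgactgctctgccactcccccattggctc
Pdyn downstream start: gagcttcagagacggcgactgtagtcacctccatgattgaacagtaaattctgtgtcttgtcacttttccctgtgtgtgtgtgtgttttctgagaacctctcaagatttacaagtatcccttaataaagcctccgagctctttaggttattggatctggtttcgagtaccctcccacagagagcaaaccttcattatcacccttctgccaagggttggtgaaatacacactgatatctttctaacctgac
Neither window has a letter in capitals because none of the motifs searched on both strands was in it. These were the cyclic AMP response element TGACGTCA (in 1.55% of 32851 promoter windows), its core TGACG (17.8%), the AP-1 site TGACTCA (4.46%) and the TATA box TATAAA (12.4%), and the core overlaps the full element. The upstream window is 57.2% G or C with 8 CpG pairs and the downstream window 44.0% with 4, against medians of 52.4% and 6 over all windows. Among the opioid genes, 4 of 7 had a promoter entry, and the Oprd1 window had the most G and C, at 80.0% with 34 CpG pairs.

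Oprk1, the kappa receptor, was counted 891 times in 39 of 765 cells (5.10%), and 786 of those counts were in cluster 4. There 30 of 75 cells (40.0%, exact binomial 95% interval 28.9 to 52.0) carried it, and the animals had 50.6, 43.5 and 91.5 CPM (61.9 ± 25.9, SD, n = 3). Cluster 5 held 91 counts in 5 of 71 cells, with 0, 9.54 and 17.4 CPM in the 3 animals. Cluster 1 had 11 counts, all in 1 cell, cluster 7 had 2 and cluster 6 had 1, and the other 6 clusters had none. All 3 animals of cluster 4 lay above all animals of every other cluster.

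The receptor was called higher in cluster 4 (edgeR adjusted p = 2.81e-05) and in cluster 5 (adjusted p = 0.00292), where 2.73% of all genes were called higher. Summed per sample, the call in cluster 4 was lost (adjusted p = 1). That fit held only samples 12 and 14 of cluster 4, both of animal 2, because a sum needed at least 10 cells. Over the 8 samples with at least 5 cells the level ran from 0 to 153 CPM with a median of 44.3. The call in cluster 5 was lost with DESeq2 (adjusted p = 0.261), with marker-score groups (0.665) and without animal 3 (0.122). Clusters 4 and 5 did not differ from each other beyond their spread (adjusted p = 0.216). Cluster 5 did not differ beyond its spread from cluster 1, the next in level (edgeR adjusted p = 0.140). Cluster 4 was higher than cluster 1 (adjusted p = 0.0277), where 1.79% of genes were called.

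Cells were then compared for which members they carried together. Of the 39 cells with Oprk1, 31 (79.5%) had Penk. Within cluster 4, Penk was counted in 27 of 30 cells with Oprk1 (90%) and in 32 of 45 cells without it (71.1%). The share was higher in the cells with Oprk1 in each animal: 3 of 3 against 9 of 13 cells in animal 1, 10 of 12 against 14 of 21 in animal 2 and 14 of 15 against 9 of 11 in animal 3. With cells at 0 Penk included, the median level of Penk was 710 CPM in cells with Oprk1 and 234 CPM in those without. Within animals 1, 2 and 3 it was 779 against 241, 213 against 158 and 1049 against 964 CPM. The cells were not matched for depth. These values describe the cells of 3 animals and carry no test.

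**Figure D3:**
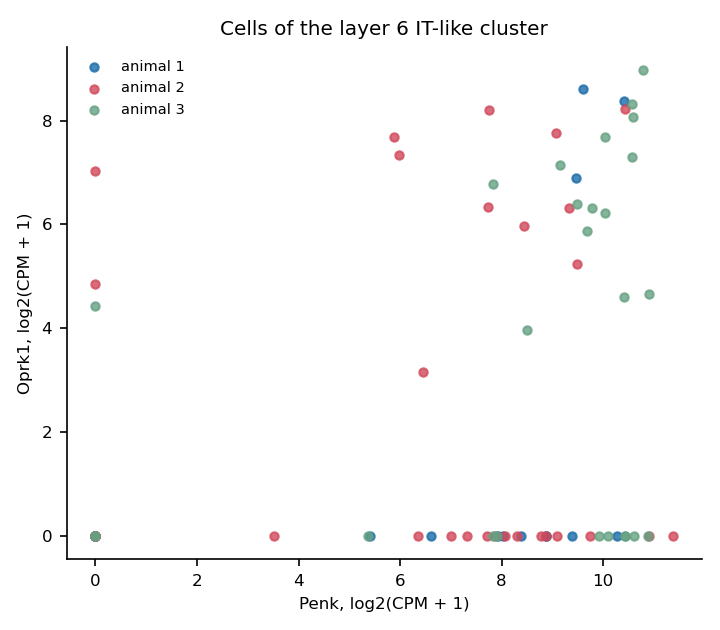
Level of Penk against Oprk1, both as log2(CPM + 1), in the 75 cells of cluster 4, coloured by animal. Of the 30 cells with Oprk1, 27 also have Penk, and 32 of the 45 cells without Oprk1 do.

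No cell had a count of both Pdyn (48 cells, 6.27%) and Oprk1 (39 cells, 5.10%). Both genes were rare and lay mostly in different clusters. Clusters 4 and 5, with most Oprk1 counts, held no Pdyn count, and cluster 3 held no Oprk1 count. With so few cells of each, the lack of shared cells adds little to the difference between clusters. Among cells with 10 or more counts, 191 had Penk, 26 had Oprk1 and 25 had Pdyn, and 22 had Penk with Oprk1 and 4 had Penk with Pdyn. The 2 precursors were counted together in 11 cells.

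Oprl1, the nociceptin receptor, was the most widely detected member, in 392 of 765 cells (51.2%) with 5278 counts. Animals 1, 2 and 3 had 38.8, 44.9 and 46.9 CPM, and the 11 samples ran from 33.9 to 51.6 CPM. In the order of level, clusters 7, 5, 3 and 2 had 62.2, 52.6, 52.0 and 44.8 CPM, and clusters 6, 1, 4 and 8 had 40.2, 39.7, 36.5 and 29.99 CPM. Fitted differences ran from a log2 of -0.65 in cluster 8 to 0.65 in cluster 7, with edgeR adjusted p-values from 0.356 to 1, and no pair of neighbours in the order of level differed beyond its spread. Of the 48 cells with Pdyn, 31 had Oprl1, and of the 39 with Oprk1, 22 did.

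Oprm1 and Oprd1, the mu and delta receptors for which enkephalins are the main ligands, were rare in these cells. Oprm1 had 115 counts in 23 cells (3.01%), of which 47 came from 4 cells of cluster 2, all of animal 2, and 27 from 2 of the 11 cells of the layer 6b-like cluster 10. Oprd1 had 219 counts in 24 cells (3.14%), of which 75 were in cluster 2, 66 in cluster 1 and 46 in cluster 5. Neither was called in any cluster. At these counts a difference smaller than the spread between animals was not detectable.

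Dissection levels were compared over all neurons and then within clusters. Over all neurons, none of the 6 opioid genes was called by edgeR between levels, where 0.103% of 13628 genes were, and 866 genes had an unadjusted p under 0.05 between posterior and medium. DESeq2 called 2 of them between posterior and medium, where it called 0.726% of the genes it adjusted. Penk was 93.9, 104 and 251 CPM at the anterior level in animals 1, 2 and 3, 204, 317 and 235 CPM at the medium level and 31.0, 76.2 and 186 CPM at the posterior level. Posterior was the lowest level of Penk in all 3 animals (posterior against medium -1.67 on the log2 scale, SE 0.37, edgeR adjusted p = 0.344, DESeq2 -1.71, adjusted p = 0.000153). Pdyn was 3.88, 3.39 and 2.73 CPM at the anterior level, 0, 1.84 and 1.42 at the medium level and 29.8, 16.1 and 3.14 at the posterior level (posterior against medium 3.16, SE 0.85, edgeR adjusted p = 0.476, DESeq2 3.25, adjusted p = 0.00732). Posterior was the highest level of Pdyn in all 3 animals.

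**Figure D4:**
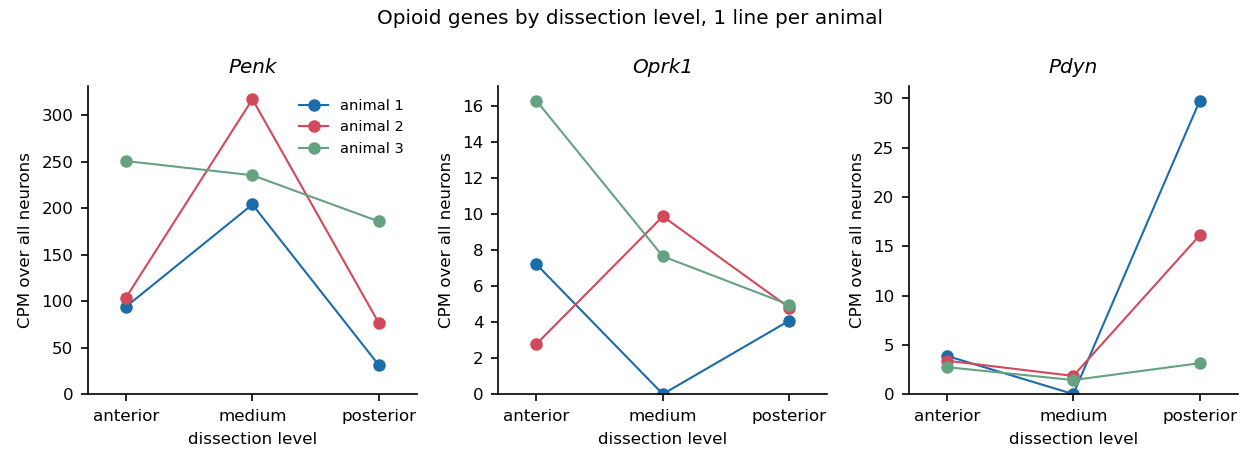
Level of Penk, Oprk1 and Pdyn in CPM over all neurons at the 3 dissection levels, with 1 line per animal. Penk is lowest and Pdyn highest at the posterior level in all 3 animals, by unequal amounts, and the Oprk1 lines cross.

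The makeup of the cells moved with these levels, and its part in them was not tested beyond the comparison within clusters. That comparison did not cover clusters 3, 7 and 8. Clusters 3 and 7, where Pdyn was called, made up 7.42% of anterior, 8.29% of medium and 35.6% of posterior cells, and they held 395 of the 417 posterior Pdyn counts. The posterior share of these clusters was 51.4%, 38.5% and 22.5% in animals 1, 2 and 3. Clusters 1 and 8 together made up 39.1%, 33.6% and 23.3% of anterior, medium and posterior cells. Clusters 1, 4 and 8 held 8250 of 8314 anterior, 8028 of 8231 medium and 4737 of 4835 posterior Penk counts.

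Within clusters, none of the opioid genes was called between levels by edgeR, where 0.0635% of 12594 genes were, and DESeq2 called none of them. Levels could be compared in clusters 1, 2, 4, 5 and 6 only. Cluster 4 allowed only posterior against anterior, and cluster 5 only medium against anterior. Clusters 3, 7 and 8 had no such contrast, so Pdyn was not compared between levels in the clusters where it was called. Penk in cluster 1 was 123, 422 and 301 CPM at the anterior level, 1052 (6 cells), 859 and 561 at the medium level and 67.2 (2 cells), 191 and 313 at the posterior level in animals 1, 2 and 3. The medium level was the highest in all 3 animals (medium against anterior 1.66, SE 0.79, unadjusted p = 0.0448, adjusted p = 1). The difference between clusters in the effect of level was tested as an interaction, and 0 of the opioid genes and 0 of all genes were called (0%), with a lowest adjusted p of 0.673 among the opioid genes. Without animal 2, Penk in cluster 5 was called between medium and anterior (6.06, adjusted p = 0.0399, against 1.01, adjusted p = 0.827, with all animals), and without animal 3 it was -4.97 (adjusted p = 0.493).

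Oprk1 had no common order of levels among the animals, at 7.20, 2.77 and 16.3 CPM anterior, 0, 9.86 and 7.64 medium and 4.08, 4.79 and 4.95 posterior. Oprl1 was lowest at the medium level in all 3 animals, with 50.7, 55.6 and 41.9 CPM anterior, 24.7, 26.2 and 41.4 medium and 34.9, 45.5 and 57.2 posterior, and it was not called.

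In the spatial sections every cell type of the tissue contributes to a spot, so a level there is that of a small region and not of excitatory neurons. The section totals were 590 counts of Penk, 522 of Oprl1, 262 of Pdyn, 152 of Pnoc, 45 of Oprk1, 10 of Oprd1 and 5 of Oprm1. Sections S4 and S8 had 41.7 and 37.3 CPM of Penk, 19.1 and 15.8 of Pdyn, 9.60 and 11.1 of Pnoc, 36.4 and 33.7 of Oprl1 and 3.44 and 2.50 of Oprk1. Fewer cells of a type and less RNA per cell cannot be told apart in such sums. Spots fell into 10 zones, clusters of spots drawn with each gene centred within its section, of which 9 were present in both sections and were tested with section as a block.

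Of the 4 opioid genes that passed the filter on low counts, Penk and Pdyn were called in at least 1 zone, against 12.9% of 10666 genes. Penk was low in zone 6 (led by Myl4, Pcp4, Fezf2 and Etv1, with Fezf2 and Etv1 known for deep-layer pyramidal cells), at 11.1 and 3.49 CPM in S4 and S8, from 12 counts. There Penk fell by 2.08 on the log2 scale (SE 0.34, edgeR adjusted p = 0.000127), where 0.197% of genes were called lower. At the coarser resolution, where zones 5 and 6 were merged, the difference was -0.95 (adjusted p = 0.0032) and was not called. Penk was highest among the tested zones in zone 8 (led by Ptgds, Mgp, Myoc and Gfap), at 49.2 and 59.7 CPM (1.05, SE 0.29, adjusted p = 0.0152), where 3.09% of genes were called higher. That call was lost without the filter, without the section term, at the coarser resolution and without centring (0.99, 1.02, 0.59 and 0.72). Zone 8 had the shallowest spots, with a median of 4864 counts, and the highest sums of the meningeal fibroblast list (187 CPM, against 10.2 to 140 in the other zones) and the astrocyte list (2759 CPM, against 823 to 1790), and their part was not tested.

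Pdyn, the dynorphin precursor, was called in 3 zones. In zone 7 (led by Rorb, Pamr1, Egr1 and Arc) it was at 40.8 and 39.6 CPM, the highest in both sections, and rose by 1.49 on the log2 scale (SE 0.32, edgeR adjusted p = 0.00183), where 1.28% of genes were called higher. At the coarser resolution the difference was 0.92 (adjusted p = 0.00874) and was not called. Penk in zone 7 was at 16.6 and 21.6 CPM, and was not called there (-0.79, adjusted p = 0.155). Pdyn fell in zone 4 (led by Nnat, Calb2, Dcn and Nr2f2), at 2.36 and 7.01 CPM (-1.91, SE 0.50, adjusted p = 0.00602), and in zone 5 (led by Ighm, Trbc2 and Mobp), at 0 and 8.55 CPM (-2.08, SE 0.49, adjusted p = 0.00309). The shares of genes called lower there were 2.65% and 1.52%. In the merged zones 5 and 6 of the coarser resolution the Pdyn difference was -0.20 (adjusted p = 0.814). With spots clustered without centring, 0 opioid genes were called in any zone. Of the opioid calls in zones, only that of Penk in zone 8 had a matched group in that fit. The Pdyn calls were therefore not checked by it.

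**Figure D5:**
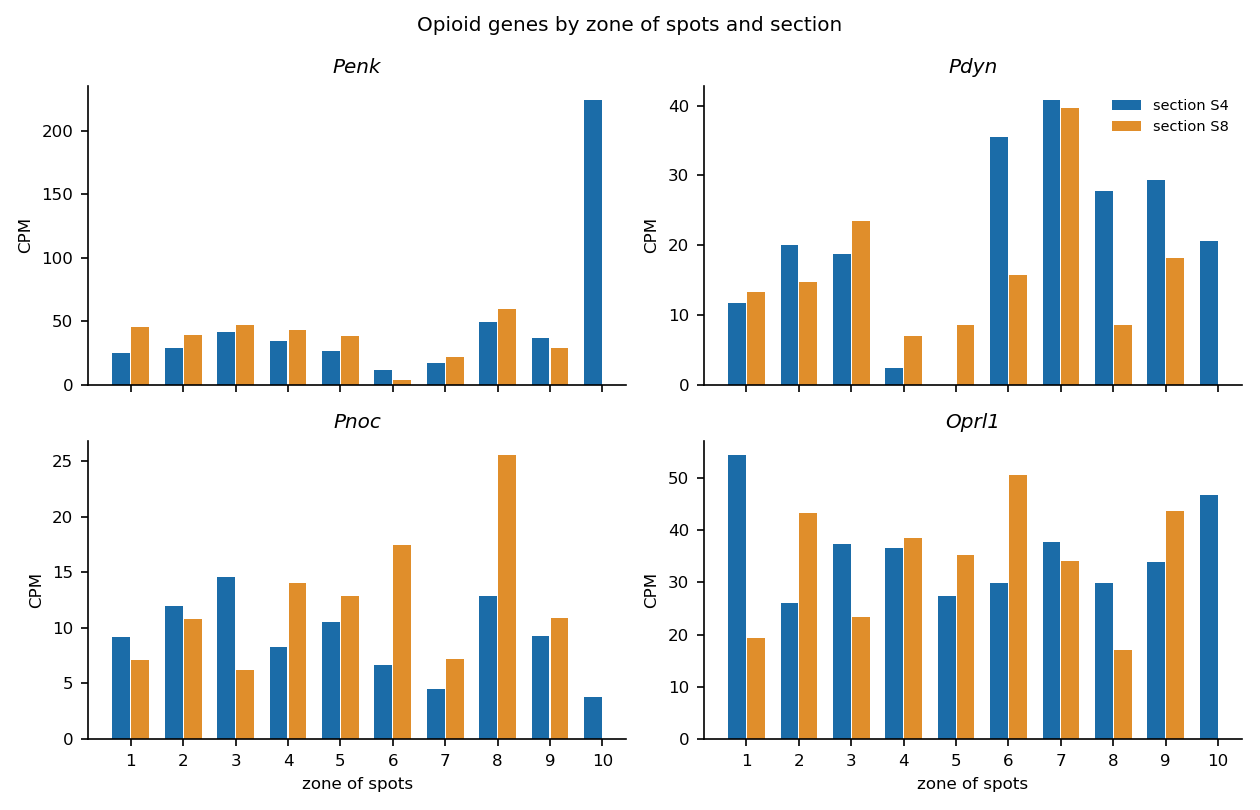
Level of Penk, Pdyn, Pnoc and Oprl1 in CPM in the 10 zones of spots, with 1 bar per section and zone 10 present only in S4. Penk is lowest in zone 6 (11.1 and 3.49 CPM) and Pdyn highest in zone 7 (40.8 and 39.6 CPM) in both sections.

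Genes of GABA neurons were counted throughout the spots, and all 10 genes of that list were above 0 in every zone. The list's sum ran from 918 to 1573 CPM, with 1487 CPM in zone 7, 1172 in zone 4 and 1228 in zone 5. The oligodendrocyte list summed to 5666 CPM in zone 5, where Pdyn was low, and to 570 to 3064 CPM in the other zones. In zone 4, where Pdyn was also low, the meningeal fibroblast list summed to 140 CPM. The part of these lists in the Pdyn differences was not tested.

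Pnoc, the nociceptin precursor, and Oprl1, its receptor, were not called in any zone. Pnoc was counted in 6.84% of spots and lay between 5.75 and 17.1 CPM over the tested zones, and Oprl1 was counted in 23.0% and lay between 25.6 and 37.9 CPM over the tested zones. Oprk1 did not pass the filter, with 45 counts in 40 spots, and 23 of those counts were in zone 1 (led by Nnat, Sst, Nr4a2 and Ccn2), at 12.6 and 7.07 CPM in S4 and S8. Without the filter, which was looked at after the counts were seen, Oprk1 was called higher in zone 1 (edgeR adjusted p = 8.72e-05), where 1.03% of genes were called. The layer 6b list, which includes Ccn2, summed to 89.9 CPM in zone 1 and to 170 CPM in zone 5, where Oprk1 was at 2.66 CPM from 5 counts.

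The other genes of the pathway were taken from a list of 45: those that mature peptides, break them down or carry the receptor's signal. In the dissociated neurons 40 had a row and 14 (35.0%) were called in at least 1 cluster, against 16.8% of all genes, 12 of them higher and 9 lower somewhere. The median size of their log2 differences was 0.404, against 0.431 over all genes. By role, 5 of 11 peptide maturation genes, 9 of 22 receptor coupling genes, 0 of 6 breakdown genes and the only other precursor gene with a row, which was not called, made up these counts. Between dissection levels 0 of 40 were called, and over zones 3 of 37 were (Rgs14 lower in zone 2, Ece2 lower in zone 5 and Rgs4 higher in zone 7).

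Among the maturation genes, Scg2, a granin of dense-core vesicles, rose in the same cluster 4 in which Penk and Oprk1 were high, at 822 ± 191 CPM (SD, n = 3) and by 2.49 on the log2 scale (edgeR adjusted p = 1.24e-07). Scg2 also rose in cluster 1 (1.07, adjusted p = 0.00208) and fell in clusters 5 (-1.61, 0.000427) and 7 (-1.40, 0.00867). Chgb, a second granin, rose in cluster 5 (1.31, adjusted p = 3.66e-06) and fell in cluster 3 (-1.21, 0.00135). Pcsk2, a convertase that cuts both precursors, fell in cluster 2 (-1.39, adjusted p = 8.96e-06) and in cluster 3 (-1.13, 0.00203), where Pdyn was high. Pcsk5, another convertase, fell in cluster 2 (-4.26, adjusted p = 0.00225) and in cluster 8 (adjusted p = 0.0246), which held 1 count, and rose in cluster 7 (2.39, adjusted p = 0.0312).

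Among the coupling genes, Adcy8, an adenylyl cyclase, rose in cluster 2 (3.06, adjusted p = 5.86e-05) and fell in cluster 4 (-3.55, 0.00299). Rgs14, a regulator of G protein signaling, rose in cluster 2 (2.09, adjusted p = 0.00302) and fell in cluster 8 (-3.03, 0.0359). Rgs9, of the same family, rose in cluster 4 (2.49, adjusted p = 0.0336). Grk5, a kinase that desensitises receptors, also rose in cluster 4 (adjusted p = 0.031), at 6.83 CPM.

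The genes whose level over the 8 tested clusters was most like that of a member are given as a description of 8 points that share cells and depth. For Penk they were Sh3glb2, Camkk1 and Ppme1 (Pearson r of 0.97 each), for Pdyn they were Qrfpr (0.96), Msh3 (0.96) and Pak3 (0.94), and for Oprk1 they were Rsrc2 (0.95), Cdh9 (0.93) and Specc1l (0.93). Qrfpr, the receptor of a hypothalamic neuropeptide, and Cdh9, a cadherin, are also in the marker lists of the layer 5 extratelencephalic and layer 6 intratelencephalic groups. For Oprl1 they were Ndufaf4, Txndc5 and Far2 (0.96, 0.96 and 0.95), for Oprm1 Chchd7 led (0.97), and for Oprd1 Jtb led (0.95).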

How the data were processed

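Dissociated neurons and spatial spots were analysed from tables of raw counts per gene, deposited by the authors. Per the submitters' processing notes, Seurat and Space Ranger were used and the builds NCBIM37 and mm10 are named, and versions, the aligner, the counter and any use of strand are not given in the sources used here. Whether the counts of cells are reads or molecules is not stated. The deposited table of cells holds cells with at least 2510 genes and genes counted in at least 10 cells, as the values show. No further cell was removed and no doublet caller was run.

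Members and lists were chosen with earlier results of these data known. Counts were scaled to 10000 per cell and log-transformed, and 2000 variable genes without the members and the pathway list, 30 components, 15 neighbours and Leiden resolution 1 gave the clusters (scanpy 1.11.5, Python 3.11.15). Spots were treated the same way with each gene centred within its section. Counts were summed per animal and group over at least 10 cells (5 for levels within clusters) and tested with edgeR 4.0.16 (R 4.3.3; filterByExpr, TMM, quasi-likelihood), with DESeq2 1.42.0 as an alternative. Animal, and for spots section, was a block, because the groups of 1 animal or section share it by the deposited cell labels; with 2 sections the spatial p-values rest on few sums. Only the spread between these animals and sections is measured. On simulated data, the cluster fit recovered 77 of 96 genes changed by 2 and 98 of 99 changed by 4 on the log2 scale, with 4 false calls among 12558 genes, and the zone fit 52 of 98 and 92 of 99, with 6 among 10776. The simulation gave every gene the same spread, had no animal or section effect and changed genes in a single group. These rates therefore need not hold for the members. All 7 members are named, and pathway genes are named where called in the clusters, at most 4 per role by size of change. Genes most like a member needed at least 10 CPM on average and 100 counts of the member.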

Additional observations from a re-analysis of the deposited data

Results flagged for a closer look

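Samples were checked in 10 groups with enough cells and counts. Groups of 11 samples were left out, namely Penk in cluster 1 and Oprl1 in clusters 1 and 2. A sample was set apart where its gap to the nearest other was large against the range. Chance does this in about 1 of 20 groups. Penk in cluster 5 was at 206 CPM in sample 15, from 5 cells with 118 of the cluster's 248 counts, and at 0 to 62.6 CPM in the 8 other samples. Oprl1 in cluster 3 was at 125 CPM in sample 11, from 10 cells, and at 17.6 to 53.4 CPM in the 6 others.

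Groups too small for the tests, or present in 1 section only, also held opioid counts. Zone 10, present in section S4 only and led by Penk, Wfs1 and Hpcal1, had 224 CPM of Penk (120 counts in 35 of 47 spots, exact Poisson 95% interval 186 to 268), 20.6 CPM of Pdyn and 46.7 CPM of Oprl1. Cluster 9 had 7.88 CPM of Penk, 2.63 of Pdyn, 1.09 of Oprd1 and 55.8 of Oprl1. The layer 6b-like cluster 10 had 5.52 CPM of Pdyn, 16.5 of Oprm1 and 38.6 of Oprl1, and cluster 11 had 7.45 CPM of Oprm1 and 48.0 of Oprl1.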

How the results depend on the processing

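Of the 157 values recomputed for single genes under an alternative, 136 kept their side of the threshold, 17 lost a call and 3 gained one. The other 1 was a call that reversed, Penk in cluster 6 with marker-score groups (0.99 on the log2 scale). For contrasts of dissection levels not called in the main fit, direction was not compared. Penk in cluster 5 between medium and anterior, 1.01 with all animals and -4.97 without animal 3, is thus among the 136. Penk in clusters 1, 2, 4, 7 and 8 kept its call in every alternative that could be fitted. At resolution 0.5 clusters 1 and 8 were merged, as were clusters 3 and 7, and most of their cells also shared a marker class. Those alternatives are thus not separate checks of clusters 7 and 8. The number of opioid genes called over clusters, 3, was 2 or 3 under every alternative, and the number of neighbouring pairs called, 2 of 21, was 2 or 3 under the alternatives chosen after seeing the data. The cause of the changes below was not tested. Between dissection levels, DESeq2 called 2 opioid genes where edgeR called 0 (171 genes against 14). Within clusters, leaving out an animal gave 0 to 1, and DESeq2 called 240 genes against 8. Over zones, resolution 0.5 gave 1 opioid gene and no centring 0, against 2, with 63 genes called against 1378 without centring. Only the Penk call of zone 8 had a matched group in the fit without centring. Thinning lowered the share of cells with Penk from 34.6% to 30.2%. Leaving out animal 1, 2 or 3 called 1634, 1106 or 1356 genes over clusters against 2249.

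Without the replicate block, 3 opioid genes and 2505 genes were called over clusters, 0 opioid genes and 1 gene between levels, 0 and 3 within clusters, and 2 and 1129 over zones; 2 neighbouring pairs were called. Leaving out a section was not run, because 1 sum per zone leaves no residual degrees of freedom. Counts were few for Oprm1 and Oprd1 in cells and for Oprk1, Oprm1 and Oprd1 in spots, and thinning moved the share of cells with Oprd1 from 3.14% to 2.91%.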
